A study of Homo sapiens with 15 samples.

Results

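Transcripts of 8 genes were followed across drug treatments of the human prostate cancer line C42B, which grows without androgen. 7 of them encode enzymes that build phosphatidylcholine and phosphatidylethanolamine (CHKA, ETNK1, PCYT1A, PCYT2, CHPT1, CEPT1 and PEMT), and LIPG encodes endothelial lipase. Of 10 genes listed by symbol, these 8 had 9 of the 21448 probe sets on the array, 2 of them for PCYT1A, and LPIN1 and PISD are not analysed here. PCYT2 and LIPG were put on the list for large rises with PF-543, taken here as those of PF-543 alone against DMSO. The other genes were chosen for their place in the pathway with earlier results of these data known. The differences of PCYT2 and LIPG that use the DMSO or the PF-543 arrays are therefore given as a description, without a test. Whether the arrays with enzalutamide and PF-543 also played a part in the choice is not recorded, so tests on them may not be free of it. All cells were grown for 3 days in medium with 10% serum and exposed for 6 h. The groups were 10 µM enzalutamide with 15 µM PF-543 (3 arrays), 10 µM enzalutamide with 15 µM ABC294640 (3 arrays), 10 µM enzalutamide (2 arrays), 15 µM PF-543 (3 arrays), 15 µM ABC294640 (1 array) and 0.125% DMSO (3 arrays). Enzalutamide blocks the androgen receptor, PF-543 inhibits sphingosine kinase 1, and ABC294640 (opaganib) inhibits sphingosine kinase 2. The labels record no DMSO percentage for the drug-treated wells, and whether replicates came from different cultures is not recorded. The p-values therefore cover the spread between these arrays only, which may be technical. RNA from whole wells was measured, so fewer cells expressing a gene and less RNA per cell cannot be told apart.

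Phosphatidylcholine and phosphatidylethanolamine are the main phospholipids of animal cell membranes, and most cells make them through the parallel branches of the Kennedy pathway. Choline or ethanolamine is phosphorylated by a kinase, activated with CTP by a cytidylyl transferase, and joined to diacylglycerol by a phosphotransferase. The cytidylyl transferase step usually sets the rate, and its ethanolamine branch, PCYT2, also receives the phosphoethanolamine that is released when sphingosine 1-phosphate, the product of the sphingosine kinases, is broken down. PEMT makes phosphatidylcholine by methylating phosphatidylethanolamine, mainly in liver. LIPG is a secreted lipase of the lipoprotein lipase family that cleaves phospholipids of high-density lipoprotein and was named for its synthesis by endothelial cells.

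The promoters of PCYT2 and LIPG, the genes with the widest differences between arrays, are shown first, with that of PCYT1A, the choline counterpart of PCYT2. On its brighter probe set PCYT1A stayed within 0.22 log2 units over the 15 arrays, and on the dimmer one within 0.35. The sequences are RefSeq's (GRCh38.p14), run from 250 bases before to 50 bases after an annotated transcription start, and carry the CCAAT box (CCAAT on either strand, ATTGG when read on the other) in capitals.

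PCYT2 (chr17:81911350-81911649, minus strand): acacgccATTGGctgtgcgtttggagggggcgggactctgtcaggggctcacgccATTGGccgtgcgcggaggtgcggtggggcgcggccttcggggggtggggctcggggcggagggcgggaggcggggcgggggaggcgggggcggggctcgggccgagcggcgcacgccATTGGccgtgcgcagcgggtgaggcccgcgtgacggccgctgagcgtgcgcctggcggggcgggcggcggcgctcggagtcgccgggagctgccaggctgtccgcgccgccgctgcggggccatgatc
LIPG (chr18:49561807-49562106, plus strand): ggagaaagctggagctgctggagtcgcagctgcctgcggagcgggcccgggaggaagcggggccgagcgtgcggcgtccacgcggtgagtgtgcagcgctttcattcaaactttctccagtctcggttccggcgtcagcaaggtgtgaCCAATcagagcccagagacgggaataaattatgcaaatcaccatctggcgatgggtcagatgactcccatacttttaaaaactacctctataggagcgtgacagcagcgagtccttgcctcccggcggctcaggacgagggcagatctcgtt
PCYT1A (chr3:196287677-196287976, minus strand): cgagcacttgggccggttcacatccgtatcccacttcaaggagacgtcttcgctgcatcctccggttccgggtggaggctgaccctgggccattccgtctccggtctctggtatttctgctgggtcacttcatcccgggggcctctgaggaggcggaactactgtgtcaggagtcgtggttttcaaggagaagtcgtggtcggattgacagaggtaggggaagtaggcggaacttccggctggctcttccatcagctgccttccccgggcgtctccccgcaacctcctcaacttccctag

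The PCYT2 promoter held 3 CCAAT boxes, all on the strand opposite to the gene, at 243, 195 and 78 bases before the start. Each lay inside a copy of CACGCCATTGGC, a run of 12 bases that occurred 3 times in this window. Of 35116 promoters of the same length, 34.6% held a CCAAT box, 3.26% held 3 or more, and 1.69% held some run of 12 bases in 3 separate copies. LIPG had 1 CCAAT box, on its own strand 102 bases before the start, and PCYT1A had none. RefSeq promoters were matched for 7 of the 8 genes, with 11 start sites in all. CCAAT boxes were found at 2 of the 11, 1 of PCYT2 and that of LIPG, and in none of the other 5 genes. With a CCAAT box in 34.6% of all promoters, nothing is read from this. CHKA was not matched.

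**Figure D1:**
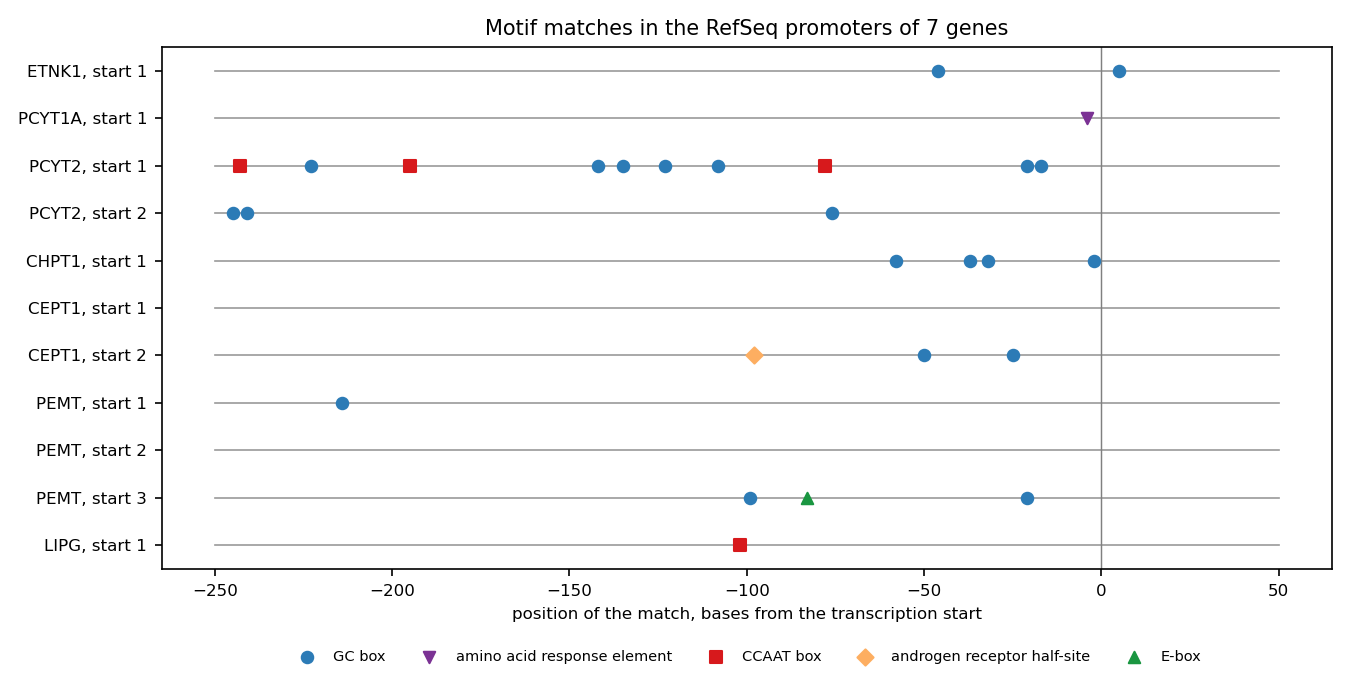
Positions of motif matches in 11 RefSeq promoters of 7 genes, in bases from the transcription start at 0, with 1 line per annotated start site and the symbols named under the axis. PCYT2 has 3 CCAAT boxes (red squares) and 7 GC boxes (blue circles) at its first start, and LIPG has 1 CCAAT box.

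A further 5 motifs were searched on both strands. The GC box GGGCGG, present in 45% of all promoters, occurred 7 times at the first PCYT2 start, 3 times at the second, 4 times in CHPT1, and in promoters of 5 of the 7 genes. The PCYT2 windows overlap, so the matches 245 and 241 bases before the second start are those 21 and 17 bases before the first. The sterol regulatory element TCACNCCAC, present in 1.13% of all promoters, was in none of the 11 windows. The E-box CACGTG (7.26% of all promoters) was found at 1 PEMT start, the androgen receptor half-site AGAACA (14.8%) at 1 CEPT1 start, and the amino acid response element TGATGNAA (3.62%) at PCYT1A. No CCAAT box lay in the window of the second PCYT2 start. The first start's window was 79.7% G or C, against a median of 58.7% over all promoters.

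The DMSO arrays stood apart from the rest of the series. On the first principal component of 17687 genes, with 15.3% of the variance, the treated arrays lay between -11.6 and 0.0296 and the DMSO arrays between 18.9 and 24.8. On all 12 treated arrays 359 genes were above all 3 DMSO arrays (2.03%) and 252 below them (1.42%), so comparisons among the arrays of cells given enzalutamide, which use no DMSO array, are given beside those against DMSO. The luminal prostate markers analysed here (KLK3, KLK2, HOXB13, FOLH1, TMPRSS2 and STEAP2) had medians between 9.38 and 15.8. Their summed level, as log2, was 16.7 to 16.9 on the arrays with enzalutamide and 17.0 to 17.1 on those without. The endothelial markers PECAM1, CDH5, TEK and KDR had medians of 3.47 to 4.31 and VWF one of 6.27, where the first quartile of all probe sets was 4.57 to 4.69. The summed level of all 5 endothelial markers was 6.85 to 7.34 on the treated arrays and 7.05 to 7.52 on the DMSO arrays.

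PCYT2, the cytidylyl transferase of the ethanolamine branch, was lowest in DMSO and highest with PF-543. In log2 units it was at 9.96, 10.01 and 9.95 with PF-543, at 9.71, 9.74 and 9.99 with enzalutamide and PF-543, at 9.54 and 9.59 with enzalutamide, at 9.07, 9.42 and 9.58 with enzalutamide and ABC294640, at 9.60 on the ABC294640 array, and at 9.01, 8.91 and 9.03 in DMSO. All 12 treated arrays were above all 3 DMSO arrays, by a margin of 0.04 at the narrowest. The mean was 9.97 ± 0.03 with PF-543 and 8.98 ± 0.06 in DMSO (SD, n = 3 each), a log2 difference of 0.99 (SE 0.12) or 1.99-fold, the 12th highest among 17687 genes. This is taken as the difference for which PCYT2 was chosen. Against the same DMSO arrays, PCYT2 was higher by log2 0.83 (SE 0.12) with enzalutamide and PF-543, 0.58 (SE 0.14) with enzalutamide, 0.37 (SE 0.12) with enzalutamide and ABC294640, and 0.62 (SE 0.17) on the single ABC294640 array, whose spread was lent by the other groups.

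Without the DMSO arrays, PCYT2 was not past the threshold in any comparison. Enzalutamide with PF-543 had a mean of 9.81 ± 0.15 (SD, n = 3), against 9.57 ± 0.04 (SD, n = 2) with enzalutamide alone. The difference was log2 0.25 (95% CI -0.05 to 0.54, limma adjusted p = 0.71), and the arrays of both groups did not overlap. Between the combinations, the 3 arrays with PF-543 lay above the 3 with ABC294640, whose mean was 9.36 ± 0.26 (SD). That difference was log2 0.46 (95% CI 0.19 to 0.72), and limma's adjusted p over all genes was 0.407. The lowest array with ABC294640, replicate 1 at 9.07, widened it, and without that array the difference was 0.31 (limma adjusted p = 0.614). Adding ABC294640 to enzalutamide gave log2 -0.21 (95% CI -0.50 to 0.09, limma adjusted p = 0.826), and -0.07 without the same array. In the order of group means, PF-543 and its combination overlapped, as did enzalutamide alone and its combination with ABC294640. The ABC294640 array lay just above both enzalutamide arrays.

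LIPG, endothelial lipase, was dim on all arrays, and in DMSO its level was close to the first quartile of signal. It was at 6.01, 5.70 and 6.38 with PF-543, at 6.12, 5.99 and 5.85 with enzalutamide and PF-543, at 5.63, 5.69 and 5.59 with enzalutamide and ABC294640, at 5.29 and 5.50 with enzalutamide, at 5.44 on the ABC294640 array, and at 4.91, 4.75 and 5.12 in DMSO. All 12 treated arrays again lay above all 3 DMSO arrays. The deposited values carry no detection calls, so whether LIPG was above background in DMSO was not judged. The mean was 6.03 ± 0.34 with PF-543 and 4.93 ± 0.19 in DMSO (SD, n = 3 each). The log2 difference was 1.10 (SE 0.15) or 2.15-fold, the 5th highest among all genes, and is taken as the one for which LIPG was chosen. Against DMSO it was higher by log2 1.06 (SE 0.15) with enzalutamide and PF-543, 0.71 (SE 0.15) with enzalutamide and ABC294640, 0.51 (SE 0.22) on the ABC294640 array and 0.47 (SE 0.17) with enzalutamide.

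On top of enzalutamide, PF-543 arrays were again high for LIPG, but not past the threshold. The combination had a mean of 5.99 ± 0.14 (SD, n = 3), against 5.40 ± 0.15 (SD, n = 2) with enzalutamide alone, with no overlap. The difference was log2 0.59 (95% CI 0.22 to 0.96) or 1.51-fold, with a limma adjusted p of 0.413. It lay between 0.49 and 0.70 under all alternatives, with adjusted p from 0.318 to 0.712. With ABC294640 in place of PF-543 the difference from enzalutamide was log2 0.24 (95% CI -0.13 to 0.61, limma adjusted p = 0.84). All 3 arrays of the PF-543 combination were above all 3 of the ABC294640 combination, by log2 0.35 (95% CI 0.02 to 0.68, limma adjusted p = 0.675). Enzalutamide added to PF-543 left LIPG at log2 -0.04 (SE 0.15) and PCYT2 at -0.16 (SE 0.12) from PF-543 alone, given without a test because the PF-543 arrays chose both genes.

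**Figure D2:**
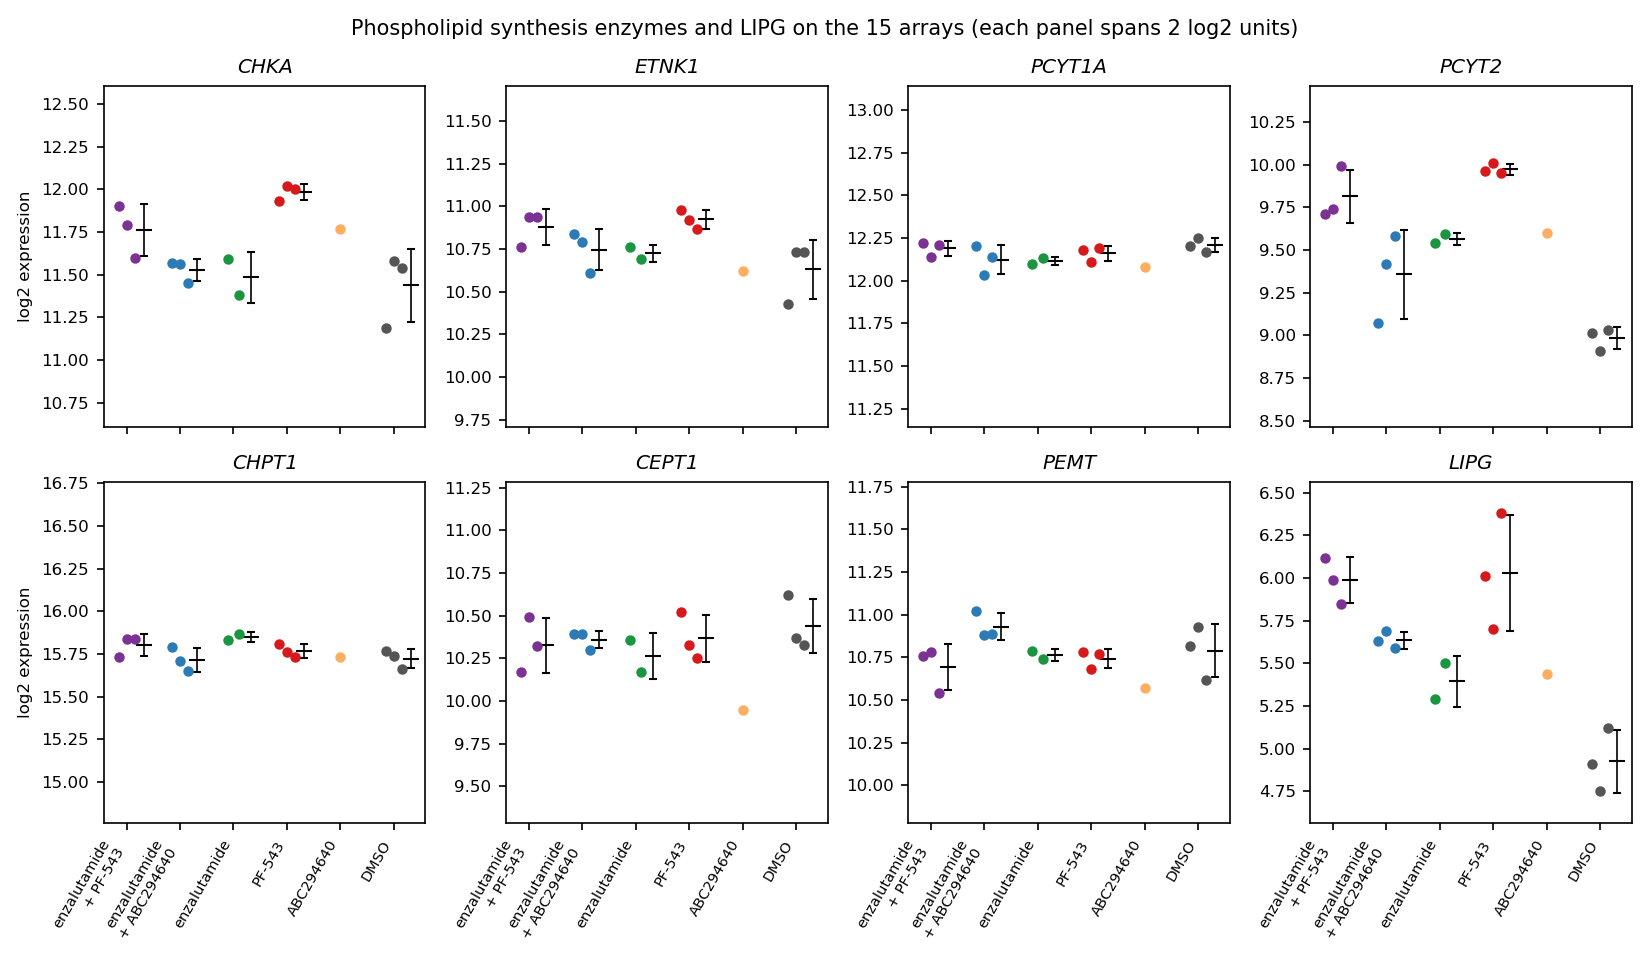
Log2 expression of the 8 genes (1 panel each, all spanning 2 log2 units) on every array, with groups along the horizontal axis. Points are arrays, and the bar beside each group of 2 or 3 arrays is the mean ± SD. PCYT2 and LIPG are the only panels in which all 12 treated arrays lie above the 3 DMSO arrays.

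PCYT2 and LIPG were set beside INSIG1, which restrains the activation of SREBP transcription factors, and HMGCS1, an enzyme of the mevalonate pathway, 2 genes controlled by sterols through SREBP. In both groups given PF-543 all 4 genes were above DMSO. With PF-543 alone INSIG1 was higher by log2 1.41 (SE 0.12, limma adjusted p = 0.000228) and HMGCS1 by 1.46 (SE 0.13, limma adjusted p = 0.000236), beside 0.99 for PCYT2 and 1.10 for LIPG. With enzalutamide and PF-543 INSIG1 was higher by log2 0.93 (SE 0.12, limma adjusted p = 0.00168) and HMGCS1 by 0.63 (SE 0.13, limma adjusted p = 0.0265, lost in 5 of 26 alternatives), beside 0.83 and 1.06. With enzalutamide alone, where PCYT2 and LIPG were log2 0.58 and 0.47 above DMSO, INSIG1 was at -0.23 (SE 0.13, limma adjusted p = 0.496) and HMGCS1 at -0.05 (SE 0.14, limma adjusted p = 0.926). With enzalutamide and ABC294640, where PCYT2 and LIPG were at 0.37 and 0.71, they were at -0.37 (SE 0.12, limma adjusted p = 0.147) and -0.18 (SE 0.13, limma adjusted p = 0.532). On the single ABC294640 array PCYT2 and LIPG were at log2 0.62 and 0.51 from DMSO, INSIG1 at 0.03 and HMGCS1 at 0.12. INSIG1 passed the test against enzalutamide alone when PF-543 was added (log2 1.16, SE 0.13, limma adjusted p = 0.00656), and HMGCS1 did not (0.68, SE 0.14, adjusted p = 0.202). Both were higher with PF-543 than with ABC294640 on top of enzalutamide, INSIG1 by log2 1.31 (SE 0.12, limma adjusted p = 0.000467) and HMGCS1 by 0.81 (SE 0.13, adjusted p = 0.0358). The HMGCS1 call was lost in 14 of 26 alternatives, among them leaving out any 1 of the 6 arrays compared (limma adjusted p 0.104 to 0.202) and the fit of these arrays alone (0.237). The INSIG1 call against enzalutamide was lost in 4 of 26, which were without either enzalutamide array (0.0822 and 0.0849), without replicate 2 of the combination (0.0549) and with the compared arrays alone (0.172). Over the 15 arrays PCYT2 had r = 0.69 with INSIG1 and 0.78 with HMGCS1, and LIPG had 0.67 and 0.64. Over the 8 arrays of cells given enzalutamide these were 0.64 and 0.85 for PCYT2 and 0.82 and 0.75 for LIPG. Between deviations from the group means, on the 14 arrays of groups with replicates, they were -0.75 and 0.60 for PCYT2. For LIPG they were 0.37 and -0.13. The r over 15 arrays include differences between groups, among them the ones for which PCYT2 and LIPG were chosen. Whether these genes differ in pattern was not tested.

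**Figure D3:**
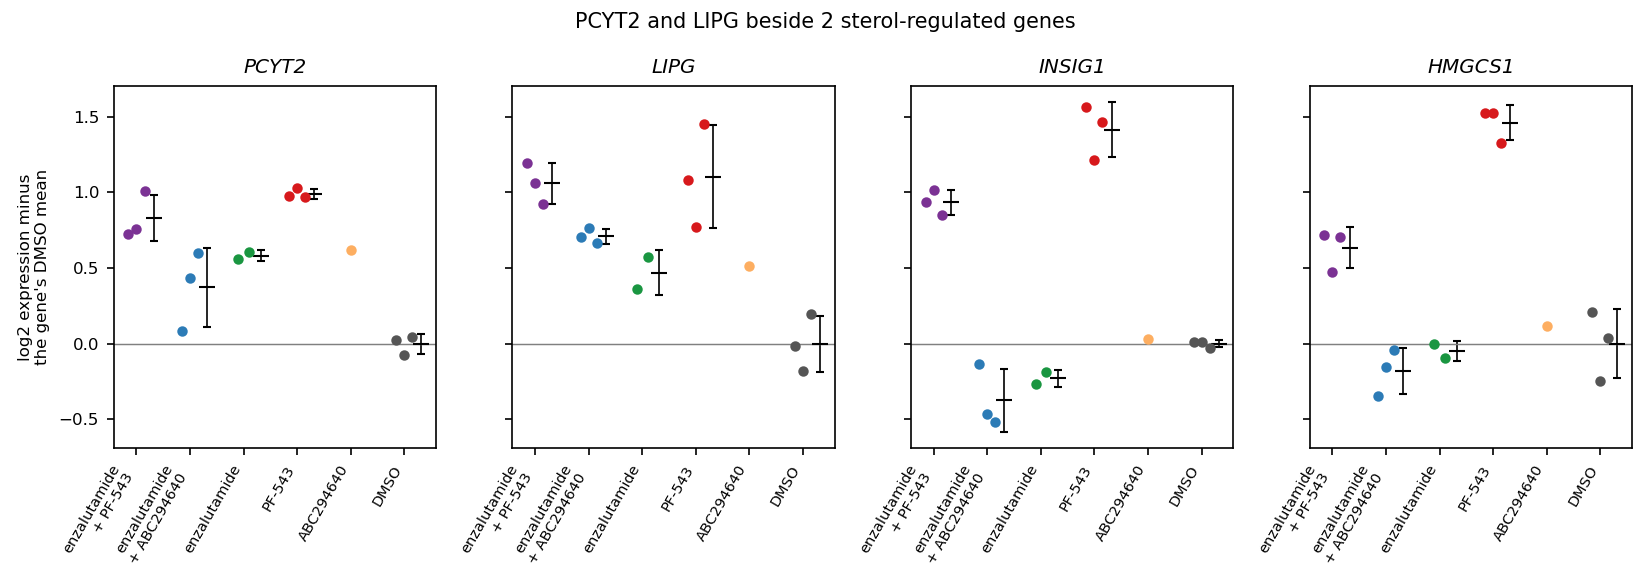
Log2 expression of PCYT2, LIPG, INSIG1 and HMGCS1 minus each gene's own DMSO mean (horizontal line at 0), with points for arrays and bars for the mean ± SD of groups with 2 or 3 arrays. All 4 genes are above 0 on every array given PF-543. PCYT2 and LIPG are also above 0 on the other treated arrays, while INSIG1 and HMGCS1 are at or below 0 with enzalutamide and with enzalutamide plus ABC294640. On the single ABC294640 array INSIG1 is at 0.03 and HMGCS1 at 0.12.

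Among the kinases that open the pathway, CHKA and ETNK1 lay higher on the PF-543 arrays than on the DMSO arrays, without passing the threshold. The other kinases of the same step, CHKB and ETNK2, were at log2 0.03 (SE 0.17) and 0.22 (SE 0.14) from DMSO with PF-543, and at -0.14 (SE 0.19) and -0.05 (SE 0.16) with PF-543 on top of enzalutamide, with limma adjusted p of 0.487 or more. CHKA, choline kinase, was at 11.93, 12.02 and 12 with PF-543 and at 11.19, 11.58 and 11.54 in DMSO. These arrays did not overlap, as was so with PF-543 higher for 10.2% of all genes, and the means differed by log2 0.55 (SE 0.12, limma adjusted p = 0.0636) or 1.46-fold. The adjusted p of CHKA ran from 0.002 with a robust prior to 0.18 over the alternatives, and it was 0.0407 when the dimmest 25% of genes were left out. On top of enzalutamide, CHKA was at 11.90, 11.79 and 11.60 with PF-543, against 11.59 and 11.38 with enzalutamide alone, again without overlap (log2 0.28, 95% CI -0.01 to 0.56, limma adjusted p = 0.651). Enzalutamide added to PF-543 took CHKA to log2 -0.22 from PF-543 alone (95% CI -0.47 to 0.03, limma adjusted p = 0.677), with all arrays of the combination below those of PF-543.

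ETNK1, ethanolamine kinase, was at 10.98, 10.92 and 10.87 with PF-543 and at 10.43, 10.73 and 10.73 in DMSO. The difference was log2 0.29 (SE 0.11, limma adjusted p = 0.212), and the lowest array of the set, DMSO replicate 1, was also the lowest for CHKA. With PF-543 on top of enzalutamide ETNK1 was at 10.76, 10.94 and 10.94, against 10.76 and 10.69 with enzalutamide alone, so that the groups overlapped (log2 0.15, 95% CI -0.10 to 0.41, limma adjusted p = 0.792). The single ABC294640 array held 11.77 for CHKA, log2 0.33 from DMSO (SE 0.17), and 10.62 for ETNK1, log2 -0.01 (SE 0.15). The difference of the PF-543 effect with and without enzalutamide was log2 -0.27 for CHKA (95% CI -0.65 to 0.11, limma adjusted p = 0.734) and -0.14 for ETNK1 (95% CI -0.48 to 0.20, limma adjusted p = 0.859).

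PCYT1A, the cytidylyl transferase of the choline branch, varied little, from 12.03 to 12.25 over all 15 arrays. The platform names the probe set behind these values as unmapped and pairs it with PCYT1A only in its annotation, so which transcripts it reads was not checked. It was at 12.18, 12.11 and 12.19 with PF-543 and at 12.20, 12.25 and 12.17 in DMSO, which overlapped, and the difference was log2 -0.05 (95% CI -0.22 to 0.12, limma adjusted p = 0.823). On top of enzalutamide PF-543 gave log2 0.07 (95% CI -0.12 to 0.27, limma adjusted p = 0.882). The second, dimmer PCYT1A probe set ran from 11.27 to 11.62 and was lowest with PF-543, at 11.37, 11.37 and 11.27, against 11.62, 11.44 and 11.47 in DMSO. The arrays of this probe set did not overlap, as was so with PF-543 lower for 10% of all genes, and the counts of overlap below use the first probe set. Its difference was log2 -0.17 (SE 0.09, limma adjusted p = 0.375). On top of enzalutamide the second probe set was at log2 0.10 (SE 0.10). In both of these comparisons the probe sets gave small differences of the same sign, and neither passed. Their signs were opposite for the ABC294640 array against DMSO, at log2 -0.13 for the first and 0.10 for the second. They were also opposite against DMSO for enzalutamide with PF-543 (-0.02 and 0.04) and with ABC294640 (-0.08 and 0.01).

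The phosphotransferases CHPT1 and CEPT1, which finish the pathway, showed no difference past the threshold in any comparison. SELENOI, another phosphotransferase of the pathway, was at log2 0.34 with PF-543 against DMSO (SE 0.12, limma adjusted p = 0.197). On top of enzalutamide it was at log2 0.25 with PF-543 (SE 0.13, limma adjusted p = 0.7). CHPT1, which makes phosphatidylcholine, was at 15.65 to 15.87 on all arrays. It was at 15.83 and 15.87 with enzalutamide and at 15.77, 15.74 and 15.66 in DMSO (log2 0.13, 95% CI -0.07 to 0.32, limma adjusted p = 0.591). CEPT1, which serves both branches, was at 10.52, 10.33 and 10.25 with PF-543, against 10.62, 10.37 and 10.33 in DMSO (log2 -0.07, 95% CI -0.32 to 0.18, limma adjusted p = 0.807). Its lowest value, 9.95, was on the single ABC294640 array, log2 -0.49 from DMSO (95% CI -0.84 to -0.14, limma adjusted p = 0.381). With ABC294640 added to enzalutamide, in 3 arrays at 10.39, 10.39 and 10.30, CEPT1 was at log2 0.10 from enzalutamide alone (95% CI -0.18 to 0.37, limma adjusted p = 0.932).

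PEMT, the methyltransferase, was the only one of the 8 genes that lay lower with PF-543 than with ABC294640 on top of enzalutamide and without overlap. It was at 10.76, 10.78 and 10.54 with PF-543, against 11.02, 10.88 and 10.89 with ABC294640, a log2 difference of -0.24 (95% CI -0.46 to -0.02, limma adjusted p = 0.668). Against enzalutamide alone, at 10.79 and 10.74, the differences were log2 -0.07 with PF-543 (95% CI -0.32 to 0.17) and 0.17 with ABC294640 (95% CI -0.08 to 0.41), with limma adjusted p of 0.919 and 0.837. PEMT in DMSO, at 10.82, 10.93 and 10.62, spanned most of this range.

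Counted over the 8 genes, 2 were past the threshold (adjusted p under 0.05) and higher for PF-543 against DMSO, where 0.565% of all 17687 genes passed and 0.362% were higher. For enzalutamide with PF-543 against DMSO 2 were past it and higher, where 2.02% of all genes passed and 1.12% were higher. Both counts consist of PCYT2 and LIPG, chosen on the same DMSO arrays, and nothing is read from them. Of the 8 genes 0 passed for enzalutamide with ABC294640 against DMSO, where 0.701% of all genes passed (0.339% higher and 0.362% lower), and 0 for enzalutamide against DMSO, where 0.311% did (0.124% and 0.187%). For the single ABC294640 array against DMSO, 0 of the 8 and 0% of all genes passed.

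Among the comparisons without DMSO, 0 of the 8 genes passed for enzalutamide with PF-543 against enzalutamide, where 0.0283% of all genes did. Against enzalutamide with ABC294640 the count was 0, where 0.0961% of all genes passed (0.0905% higher and 0.00565% lower). Against PF-543 it was 0, where 0.311% passed (0.0792% higher and 0.232% lower). For enzalutamide with ABC294640 against enzalutamide no gene at all passed in limma (0%), and 1200 genes, of which 0 of the 8, had an unadjusted p under 0.05. Those counts were 1385 genes with 1 of the 8 for PF-543 added to enzalutamide, and 1275 genes with 3 of the 8 between the combinations, where 884 would come by chance.

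Groups whose arrays did not overlap were counted as well. On top of enzalutamide, 4 of the 8 genes lay wholly higher with PF-543 (CHKA, PCYT1A, PCYT2 and LIPG) and 0 wholly lower, where 12.8% and 11.2% of all genes did. The margin was narrow for PCYT1A, whose nearest arrays were at 12.14 and 12.13, and for CHKA, at 11.60 and 11.59. Against the ABC294640 combination 3 lay wholly higher (CHKA, PCYT2 and LIPG) and 1 wholly lower (PEMT), where 6.43% and 5.97% of all genes did. With ABC294640 added to enzalutamide 2 lay wholly higher and 1 wholly lower, where 10.5% and 10.2% did. For enzalutamide with PF-543 against PF-543, 0 lay wholly higher and 1 wholly lower (CHKA), where 7.6% and 6.99% did. Every count against DMSO includes PCYT2 and LIPG, chosen on those arrays, and nothing is read from it. Enzalutamide with PF-543 had 4 wholly higher and 0 wholly lower (12.1% and 11.6% of all genes), and enzalutamide with ABC294640 had 2 and 0 (9.48% and 9.75%). Enzalutamide had 3 and 1 (13.5% and 14.6%), PF-543 had 4 and 0 (10.2% and 10%), and the single ABC294640 array had 3 and 3 (26.1% and 28.9%). The wholly higher genes besides PCYT2 and LIPG were CHKA and ETNK1 in both PF-543 groups, CHPT1 with enzalutamide and CHKA on the ABC294640 array. The median log2 difference of the 8 genes was 0.12 for PF-543 added to enzalutamide and 0.11 between the combinations, beside 0.005 and 0.00333 over all genes.

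**Figure D4:**
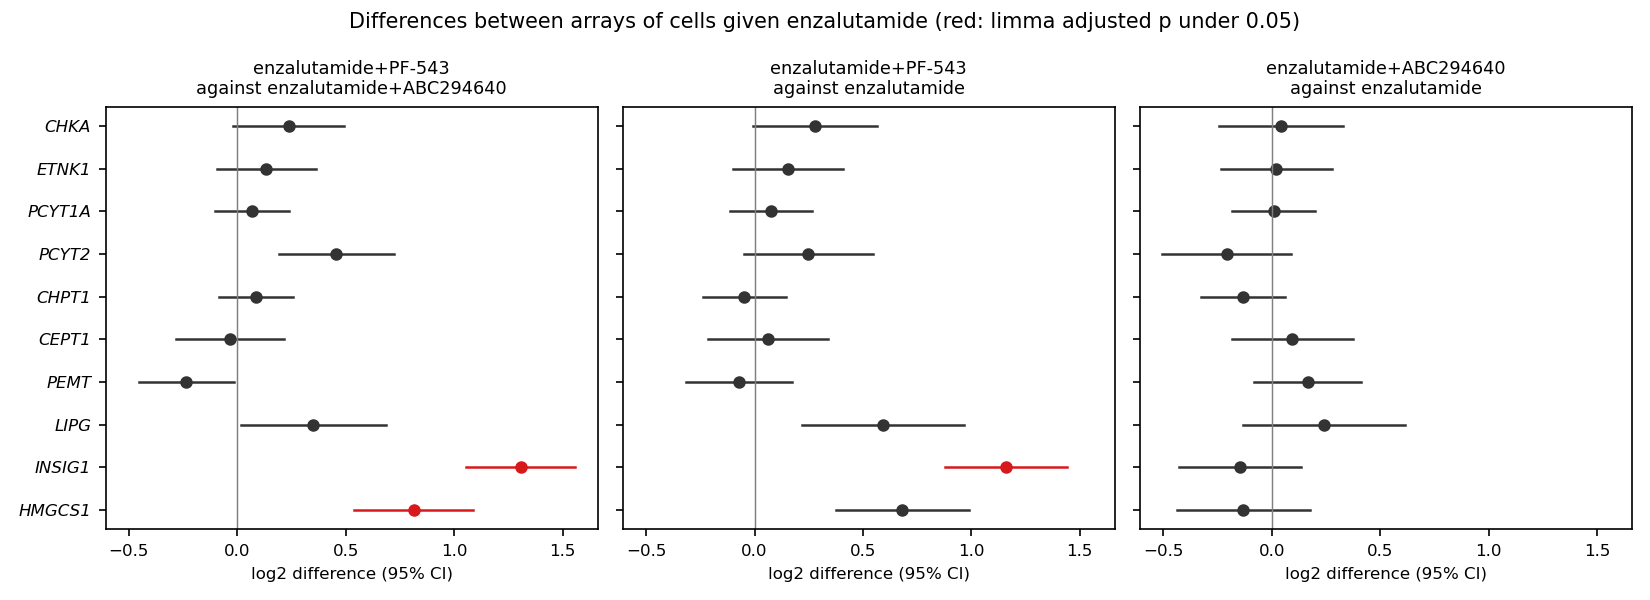
Log2 differences with 95% confidence intervals for the 8 genes and, below them, INSIG1 and HMGCS1, in the 3 comparisons that use only arrays of cells given enzalutamide. Black marks did not pass a limma adjusted p of 0.05 and red marks did, which were INSIG1 in the left and middle panels and HMGCS1 in the left panel.

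Around these genes, 92 others of phospholipid and lipoprotein metabolism were listed by function, and 81 were measured. With PF-543 against DMSO 0 of the 81 passed in either direction, where 0.565% of all genes passed. The median of the 81 was log2 0.00667 beside -0.01 over all genes. With PF-543 on top of enzalutamide 0 passed, where 0.0283% of all genes did, with a median of -0.00333 beside 0.005. At such shares a count of 0 among 81 genes is no sign that the lists did not change. The first of these comparisons had list medians of log2 0.13 for the other 4 Kennedy pathway enzymes (CHKB, ETNK2, PCYT1B and SELENOI), -0.05 for the 2 phosphatidylserine synthases, 0.03 for 12 genes of phosphatidic acid and diacylglycerol supply, and 0.04 for 7 of the CDP-diacylglycerol branch. They were 0.14 for 8 lysophospholipid acyltransferases, -0.17 for 5 genes of triglyceride synthesis and storage, and -0.02 for 16 phospholipases. Choline and ethanolamine transport (8 genes) was at 0.10, lipases related to LIPG (7) at -0.16, and lipase partners with lipoprotein uptake (12) at 0.01.

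In 2 of the other comparisons genes of these lists passed. With enzalutamide and PF-543 against DMSO 1 of the 81 rose and 1 fell, where 1.12% of all genes rose and 0.905% fell, so the count is near the share over all genes. PLA2G4A, cytosolic phospholipase A2, was at 4.04, 4.16 and 4.14, against 5.06, 5.14 and 5.01 in DMSO, and fell by log2 0.96 (SE 0.15, limma adjusted p = 0.00882). The values with both drugs lie below the first quartile of every array, and PLA2G4A was also below every DMSO array on the other treated arrays, at 4.21 to 4.91. For PLA2G4A, PF-543 added to enzalutamide gave log2 -0.51 (SE 0.17, limma adjusted p = 0.477), which did not pass. LRP8, a receptor for apolipoprotein E and reelin, was at 11.93, 12.04 and 11.87, against 11.41, 11.59 and 11.41 in DMSO, and rose by log2 0.48 (SE 0.09, limma adjusted p = 0.0192). The LRP8 call was lost without DMSO replicate 1 or 3 or without replicate 1 or 2 of the combination (limma adjusted p 0.053 to 0.0801), and with the compared arrays alone (0.118). LRP8 was also at 11.88 and 11.90 with enzalutamide alone, and at 11.74, 11.71 and 11.86 with enzalutamide and ABC294640. It was at 11.67, 11.60 and 11.73 with PF-543 and at 11.59 on the ABC294640 array. PF-543 added to enzalutamide gave LRP8 log2 0.06 (SE 0.10, limma adjusted p = 0.927). With enzalutamide and PF-543 against PF-543 alone 1 of the 81 rose and 0 fell, where 0.0792% of all genes rose and 0.232% fell. PLA1A, a phospholipase A1 that releases lysophosphatidylserine, rose by log2 0.55 (SE 0.10, limma adjusted p = 0.0469). It was at 5.73, 5.66 and 5.71 with both drugs and at 5.32, 4.91 and 5.21 with PF-543. The PF-543 arrays also lay below DMSO, at 5.53, 5.52 and 5.55, and below enzalutamide alone, at 5.85 on both arrays. PLA1A was at 5.27, 5.42 and 5.28 with enzalutamide and ABC294640, and at 5.56 on the ABC294640 array. Its call was lost in 18 of 26 alternatives, with limma adjusted p up to 0.275.

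**Figure D5:**
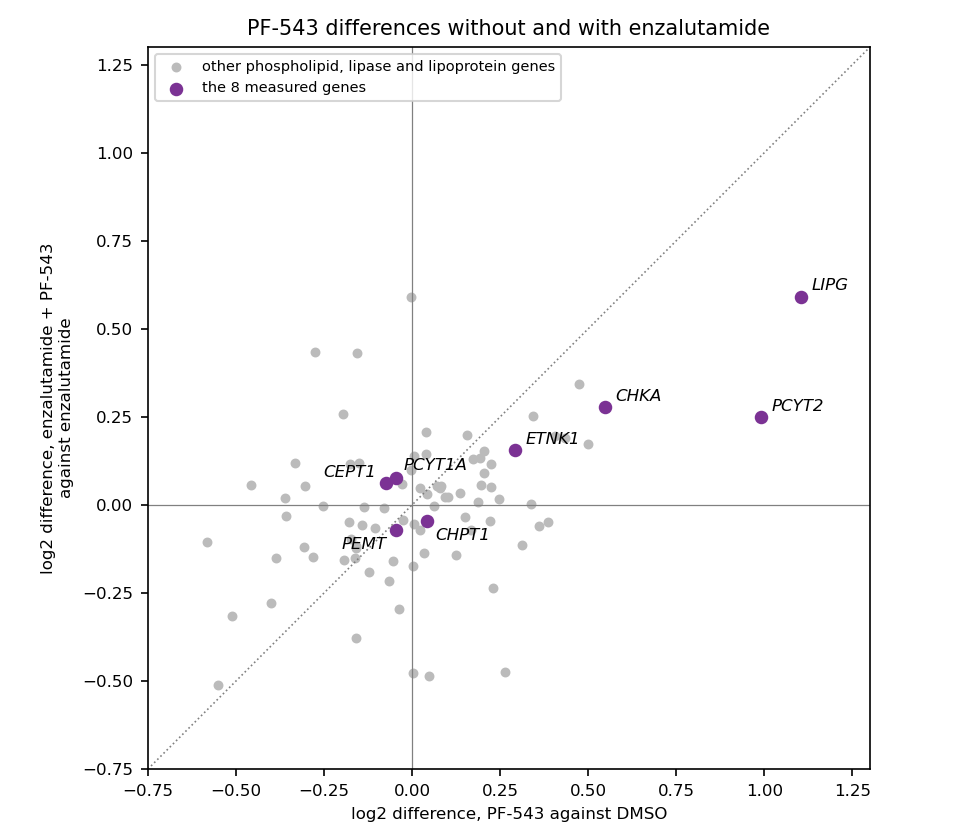
Log2 difference of PF-543 against DMSO (horizontal) and of enzalutamide with PF-543 against enzalutamide (vertical) for the 8 genes (purple, named) and the other phospholipid, lipase and lipoprotein genes (grey), with equal differences on the dotted line. The axes share no array. LIPG lies at 1.10 and 0.59, PCYT2 at 0.99 and 0.25, CHKA at 0.55 and 0.28 and ETNK1 at 0.29 and 0.15, and the other 4 genes lie near 0 on both axes.

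By Pearson correlation of log2 values over all 15 arrays, PCYT2 was most like BAIAP2 (r = 0.93), TRIM2 (0.93), BAZ2A (0.90), SCARB1 (0.90) and PPP1R11 (0.89), and LIPG was most like TMUB1 (0.89), YES1 (0.88), PRR14 (0.88), TANC1 (0.87) and ALKBH6 (0.87). SCARB1, the HDL receptor, stands in the lipoprotein list and was at log2 0.34 with PF-543 against DMSO (SE 0.10, limma adjusted p = 0.126) and at 0.00 with PF-543 on top of enzalutamide. These are the highest values among all genes, taken over arrays that share the DMSO samples, and are a description only. Over the 8 arrays of cells given enzalutamide the order changed. PCYT2 was then most like BBS1 (0.97), FTHL17 (0.95), GPHB5 (0.95), DPT (0.93) and PYCARD (0.93), and LIPG most like CEP20 (0.96), IL36RN (0.96), FBXO38 (0.94), ALG14 (0.94) and ATF3 (0.94). No gene was among the 5 nearest in both sets of arrays. PCYT2 and LIPG had r = 0.80 with each other over the 15 arrays, 0.43 over the 8 arrays, and -0.14 between their deviations from the group means on the 14 arrays of groups with replicates. CHKA and LIPG had 0.69, 0.78 and 0.07 in the same order. PCYT2 and PEMT, a pair picked after its values were seen, had -0.47, -0.92 and -0.70.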

How the data were processed

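RNA was hybridised to 15 whole-transcript Affymetrix arrays. The authors deposited RMA values on a log2 scale for each probe set, with Transcriptome Analysis Console 4.02, per the submitters' processing notes. RMA equalises the arrays' distributions (medians 6.71 to 6.76), which hides any shift common to most transcripts. The genome build is not stated for them. Groups were taken from the labels.

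The platform annotation gave 1 symbol to 17709 of 21448 probe sets, several to 0, and left 3739 unnamed here. For 20 genes with several, the one with the highest mean was kept, leaving 17687. The members, lists and tests were chosen with earlier results of these data known. Group means were estimated from the 15 arrays together with limma 3.58.1 in R 4.3.3 (9 residual and 3.82 prior degrees of freedom), with Benjamini-Hochberg adjustment over all genes in each of 10 contrasts, a threshold of 0.05 and 95% intervals that are not adjusted. Besides the members, the named genes were list genes past the threshold, INSIG1 and HMGCS1, and the 5 genes nearest to PCYT2 and LIPG by correlation. Tested on simulated data with 200 changed genes of 17687, enzalutamide with PF-543 against enzalutamide recovered 20% of changes of log2 0.5 and 62% of changes of log2 1. Against the ABC294640 combination the shares were 36% and 85%. In the real data 5 and 17 genes passed in these comparisons. Recovery depends on how many genes change, so the simulated shares may not hold for these data. Replicate numbers did not pair the arrays: same-numbered arrays had a mean correlation of deviations of -0.00323 over 26 pairs. Plots were made in Python 3.11.15 (matplotlib 3.10.9).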

Additional observations from a re-analysis of the deposited data

How the results depend on the processing

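Precision is limited by the few arrays, and with 2 enzalutamide arrays a difference of log2 0.5 would mostly be missed. For single genes, 3354 alternative values were computed (normalization, filters, prior, weights, fewer arrays, replicate block, leaving out each array), of which 3282 kept their side of the threshold, 19 gained and 53 lost a call, and 0 called values changed sign. The mean of a gene's probe sets and the second PCYT1A probe set were added after the data were seen. The direction of an uncalled difference was not judged.

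The count of the 8 genes past the threshold moved in 4 comparisons, all against DMSO. PCYT2 and LIPG were chosen on those arrays, so whether they are counted there is a description, not a sign of stability. For PF-543 it was 2, became 1 when only the arrays compared were fitted (without LIPG), and became 3, with CHKA, at an adjusted p under 0.1, without the dimmest 25% of genes and with a robust and trended prior. For enzalutamide with PF-543 it was 2, became 1 with only the arrays compared (without PCYT2), and became 3, with CHKA, with the robust prior. Both counts were 2 without any single array. For enzalutamide it was 0 and became 1, PCYT2, with the robust prior. For enzalutamide with ABC294640 it was 0 and became 1, LIPG, at an adjusted p under 0.1, with quantile normalization or cyclic loess, without the dimmest 25% and with the robust prior, and it was 0 to 1 without single arrays (1 without PF-543 replicate 2 or 3). In the other 6 comparisons it was 0 throughout, from 0 to 0 without single arrays. With the replicate block, which leaves out the ABC294640 array, the count was 2 for both PF-543 groups against DMSO and 0 elsewhere, and 4 of 14 arrays were closest to their own number.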
